A study of Saccharomyces cerevisiae with 9 samples.

Results

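The vacuolar proton ATPase (V-ATPase) subunits described here were VMA2, VMA4, VMA5, VMA7, VMA8, VMA10 and VMA13 of the V1 sector and VMA6, VPH1 and STV1 of the V0 sector, 10 of the 5449 Saccharomyces cerevisiae genes with a probe set on the array. The set was listed by gene name, with earlier results of these data known, and each gene was read by its probe set of highest mean signal. Each of the 10 had a single probe set, and all 10 passed the filter on low signal that left 4359 genes for testing. Yeast of 3 strains, KF7, NBRC2018 and NBRC1958, was grown with 60, 20 or 0 g/L succinic acid, and RNA was hybridised to 1 single-colour Affymetrix array for each strain and dose, 9 in all. All 9 cultures were in YPD, a rich medium with glucose, at 35 °C and 200 rpm for 6 h, so the cultures without added acid shared the raised temperature. The labels give no mutation, plasmid or origin for any strain.

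The V-ATPase is a rotary proton pump in the membranes of the vacuole, Golgi and endosomes. Its peripheral V1 sector hydrolyses ATP, and the turning of its central stalk drives protons through the membrane-bound V0 sector into the organelle. In yeast it keeps the vacuole acidic, powers the proton-coupled transporters that load the vacuole with metals and amino acids, and is linked to tolerance of weak organic acids such as succinic acid, which can carry protons into the cytosol. Its activity is set in large part after transcription, by reversible separation of V1 from V0 when glucose runs low, which an RNA array does not measure.

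The deposited values were taken as normalised linear signals, and their medians were near-equal, at 294 to 311 over the 9 arrays. Members read 398 or more on every array, whereas the 95th percentile of the background, taken from probe sets whose annotated gene is not in the S. cerevisiae reference, was 15.1. Tests were run with limma on log2(signal + 16), with strain and dose as factors, and a gene passed at a Benjamini-Hochberg adjusted p under 0.05 over the 4359 genes. The strains were the only replicates of a dose, so error comes from the spread left after strain and dose are fitted. For each gene, limma draws this spread toward a value shared by all genes tested. Nothing in the labels says how many cultures an array stands for. Signals of different probe sets depend on their probes and are not set against each other.

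No member passed the test between 60 and 0 g/L, against 22.8% of all genes tested. At an unadjusted p under 0.05, 2 of the 10 stood out (VMA2 and VMA7), against 40.3% of all genes. The median log2 difference of the members was -0.10, with 3 positive and 7 negative, beside a median of -0.05 over all genes tested. Of all genes tested, 2474 of 4359 differences were negative. The largest difference of a member in either direction was 1.25-fold on the log2(signal + 16) scale, and the 95% intervals of the 10 members ran from -0.58 to 0.48 on the log2 scale. Since the arrays had near-equal medians, each difference is relative to the other RNAs of a sample.

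**Figure D1:**
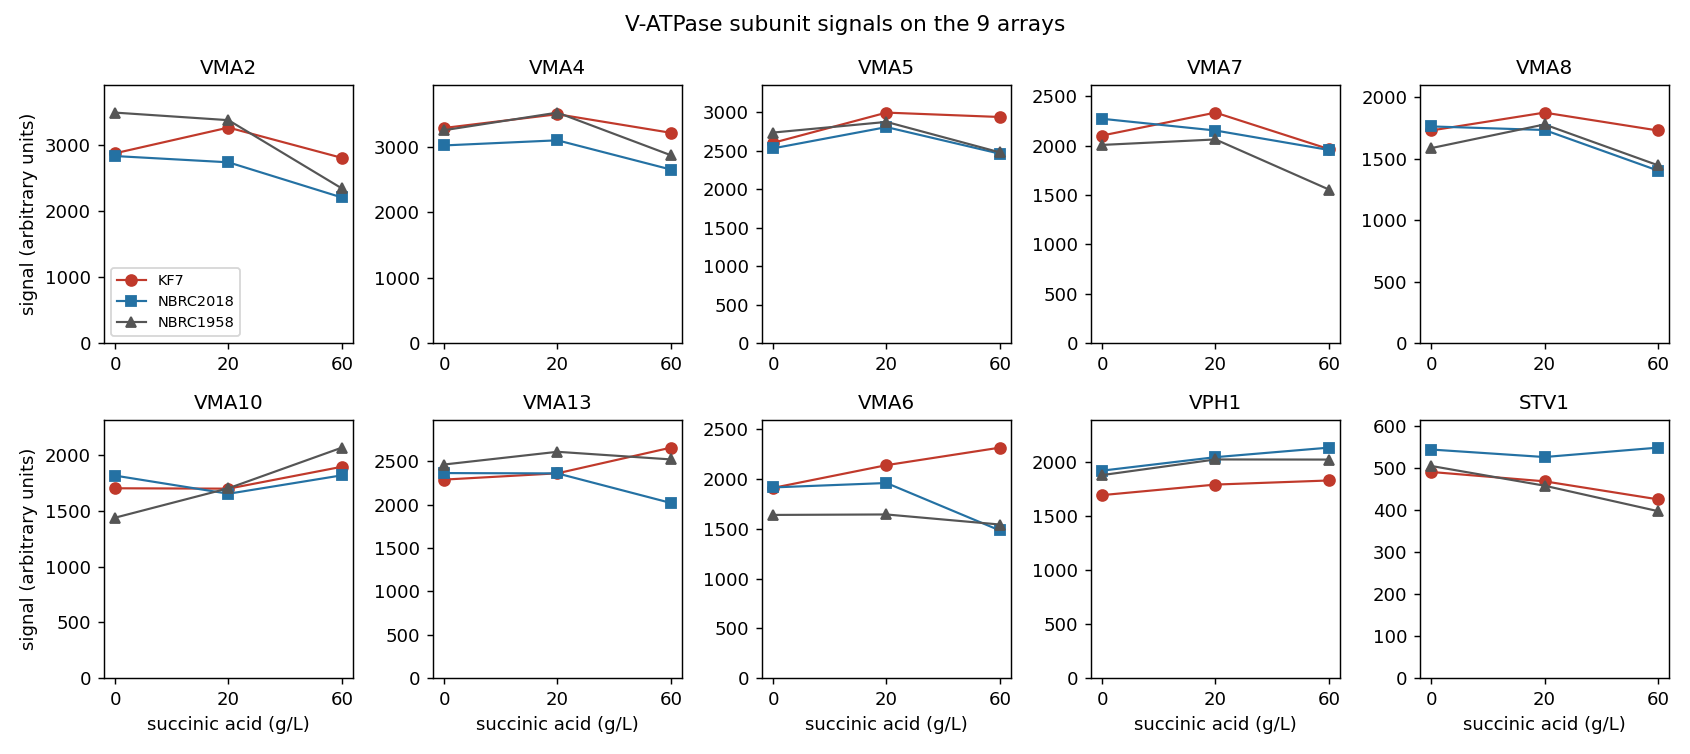
Normalised signal of each of the 10 V-ATPase subunits (y axes, linear, not all to the same scale) against succinic acid dose in g/L (x axes, doses evenly spaced), with 1 point for each array and a line for each strain. VMA2, VMA4 and VMA7 sit lowest at 60 g/L in every strain, VPH1 keeps KF7 below the other strains at every dose, and VMA6 ends highest in KF7 and lowest in NBRC2018 at 60 g/L.

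Among the V1 subunits, VMA2 had the most negative difference. It encodes subunit B (locus YBR127C), which alternates with subunit A in the ATP-hydrolysing hexamer. VMA2 read 2868, 3257 and 2799 at 0, 20 and 60 g/L in KF7, 2826, 2732 and 2201 in NBRC2018, and 3482, 3368 and 2337 in NBRC1958. All 3 arrays at 60 g/L were below all 3 at 0 g/L, although in KF7 the gap was small. The mean was 2446 ± 313 at 60 g/L and 3059 ± 367 at 0 g/L (SD, n = 3 strains each), a log2 difference of -0.32 (95% interval -0.58 to -0.06, adjusted p = 0.071, limma). With 1 array left out at a time, VMA2 did not pass in 8 of 9 cases (difference as weak as -0.22, without NBRC1958 at 60 g/L, and adjusted p up to 0.278, without NBRC1958 at 0 g/L). It passed without the KF7 array at 60 g/L (-0.43, adjusted p = 0.040).

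VMA7 and VMA8 encode subunits F and D of the central stalk that turns during catalysis. VMA7 (YGR020C) read 2104, 2336 and 1966 at 0, 20 and 60 g/L in KF7, 2273, 2155 and 1958 in NBRC2018, and 2009, 2064 and 1557 in NBRC1958. Its groups at 60 and 0 g/L did not overlap either, and the log2 difference was -0.22 (interval -0.44 to -0.01, adjusted p = 0.115). VMA8 (YEL051W) read 1731, 1876 and 1731 at 0, 20 and 60 g/L in KF7, 1764, 1735 and 1405 in NBRC2018, and 1587, 1780 and 1448 in NBRC1958. Its values at 60 g/L overlapped those at 0 g/L, with a log2 difference of -0.15 (interval -0.37 to 0.07, adjusted p = 0.262). The KF7 values of VMA8 at 60 and 0 g/L were the same deposited number. So were those of VMA10 in KF7 at 0 g/L and NBRC1958 at 20 g/L. Of the genes tested, 12.98% held an identical value on 2 or more arrays.

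VMA4 and VMA10 encode subunits E and G, which pair in the peripheral stalks that hold V1 still against V0. VMA4 (YOR332W) read 3293, 3504 and 3219 at 0, 20 and 60 g/L in KF7, 3026, 3105 and 2657 in NBRC2018, and 3259, 3528 and 2876 in NBRC1958. Its log2 difference between 60 and 0 g/L was -0.13 (interval -0.33 to 0.06, adjusted p = 0.274). VMA10 (YHR039C-A) read 1702, 1699 and 1895 at 0, 20 and 60 g/L in KF7, 1816, 1653 and 1818 in NBRC2018, and 1438, 1702 and 2066 in NBRC1958. The log2 difference of VMA10 was 0.22 (interval -0.03 to 0.48, adjusted p = 0.172), and it was 0.10 or 0.13 when NBRC1958 at 0 or at 60 g/L was left out, in that order. The values of VMA10 at 60 g/L were all above those at 0 g/L, but by as little as 1818 in NBRC2018 at 60 g/L against 1816 in NBRC2018 at 0 g/L. Over all genes tested, 7.36% had 3 arrays at 60 g/L all above the 3 at 0 g/L and 15.8% had all 3 below, beside VMA10 above and VMA2 and VMA7 below among the 10 members.

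VMA5 and VMA13 encode subunits C and H, which sit where V1 meets V0. Subunit C leaves the complex when the sectors part, and subunit H is needed for activity and silences V1 once it is free. VMA5 (YKL080W) read 2602, 2994 and 2937 at 0, 20 and 60 g/L in KF7, 2530, 2806 and 2460 in NBRC2018, and 2735, 2873 and 2478 in NBRC1958. VMA13 (YPR036W) read 2287, 2360 and 2655 in KF7, 2363, 2359 and 2018 in NBRC2018, and 2461, 2608 and 2520 in NBRC1958 at the same doses. For both genes the value at 60 g/L was above that at 0 g/L in KF7 and below it in NBRC2018, and the mean log2 differences were -0.0025 for VMA5 (interval -0.22 to 0.21, adjusted p = 0.985) and 0.01 for VMA13 (interval -0.24 to 0.25, adjusted p = 0.967).

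In the V0 sector, VPH1 and STV1 encode alternative forms of subunit a, the stationary part of the proton channel. The Vph1 form takes the pump to the vacuole and the Stv1 form to the Golgi and endosomes. VPH1 (YOR270C) read 1697, 1795 and 1833 at 0, 20 and 60 g/L in KF7, 1924, 2049 and 2137 in NBRC2018, and 1883, 2028 and 2027 in NBRC1958. In every strain both acid doses were above 0 g/L, by a log2 difference at 60 g/L of 0.11 in KF7, 0.15 in NBRC2018 and 0.11 in NBRC1958. The mean difference was 0.12 (interval -0.06 to 0.31, adjusted p = 0.284), so a small difference of the same sign in 3 of 3 strains did not pass. This interval is wider than the spread of the 3 differences, because limma drew the small spread of VPH1 toward the value shared by all genes. The failure to pass is thus not a sign that the strains disagreed. STV1 (YMR054W) read 491, 469 and 426 at 0, 20 and 60 g/L in KF7, 544, 527 and 549 in NBRC2018, and 505, 458 and 398 in NBRC1958. Its mean difference between 60 and 0 g/L was -0.17 (interval -0.39 to 0.05, adjusted p = 0.210), with lower values in KF7 and NBRC1958 and nearly equal ones in NBRC2018.

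The 2 forms were also compared within each array, as the change in log2 VPH1 minus log2 STV1 between 60 and 0 g/L. This change was 0.31 in KF7, 0.14 in NBRC2018 and 0.44 in NBRC1958, a mean of 0.30 ± 0.15 (SD, n = 3). It was positive in 3 of 3 strains, and the two-sided exact permutation test gave p = 0.25, the smallest that 3 pairs allow.

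The remaining V0 member, VMA6 (YLR447C), encodes subunit d, which couples the V1 stalk to the proteolipid ring. VMA6 read 1909, 2137 and 2313 at 0, 20 and 60 g/L in KF7, 1914, 1958 and 1482 in NBRC2018, and 1638, 1643 and 1542 in NBRC1958. The value at 60 g/L was above that at 0 g/L in KF7 and below it in NBRC2018 and NBRC1958, and the mean log2 difference was -0.06 (interval -0.35 to 0.23, adjusted p = 0.765).

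**Figure D2:**
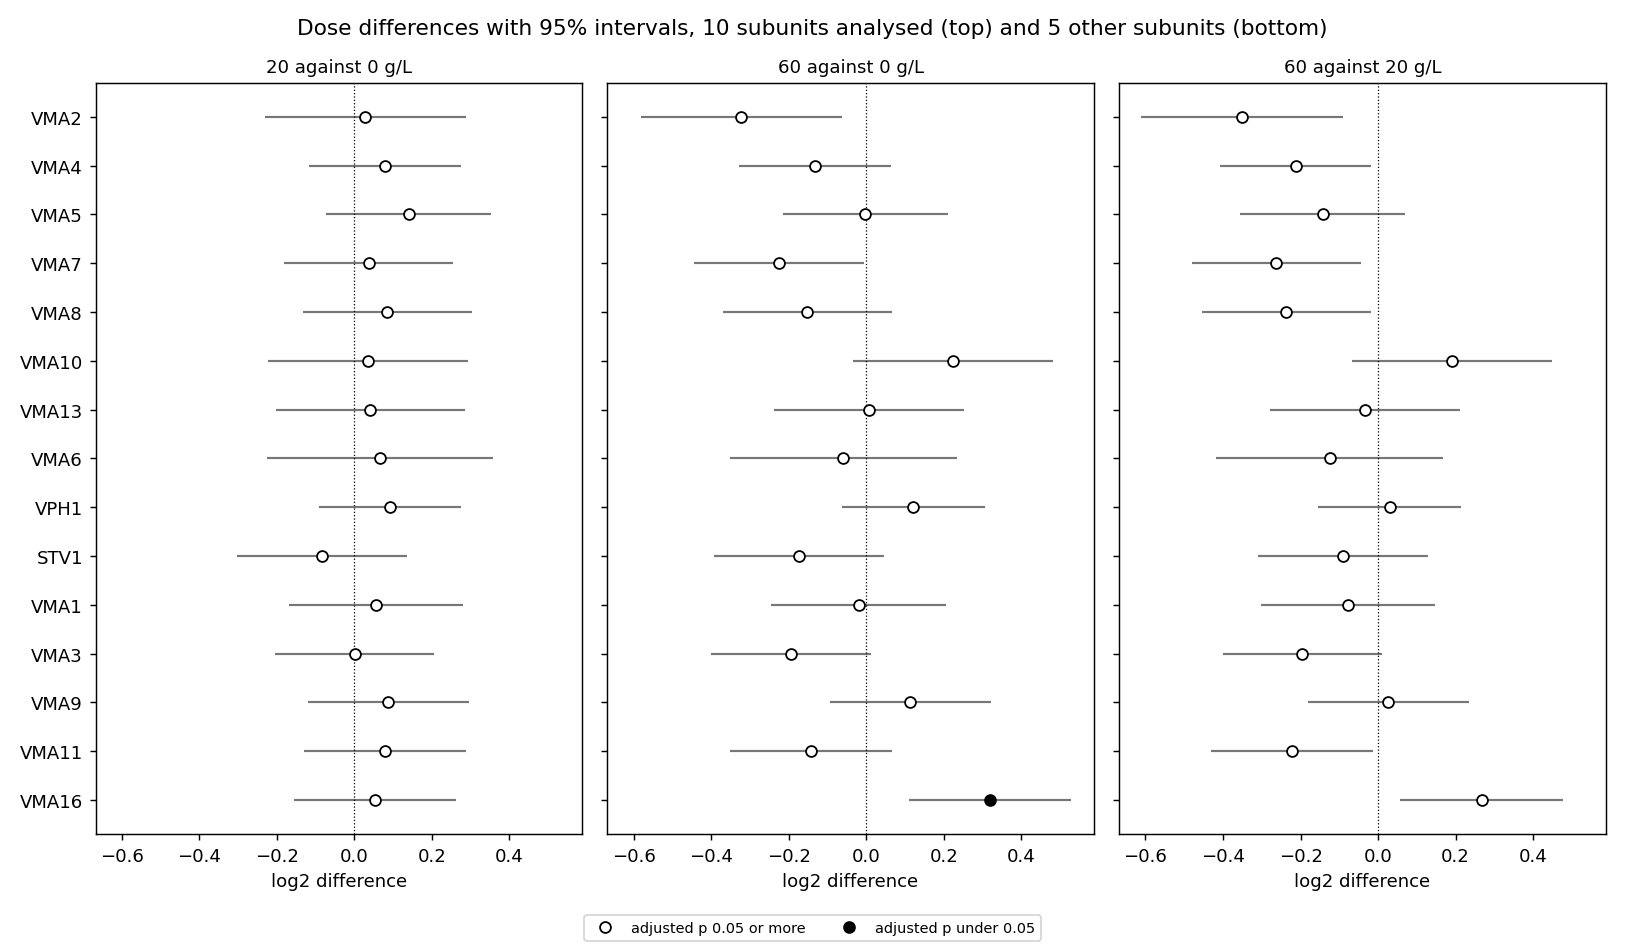
Log2 differences between doses (x axis) for the 10 subunits described and 5 other subunits of the pump (y axis), with points for the limma estimate over 3 strains and bars for its 95% interval. Filled points passed at an adjusted p under 0.05. Only VMA16 at 60 against 0 g/L is filled, and among the 10 subunits VMA2 lies lowest and VMA10 highest at 60 against 0 g/L.

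At 20 g/L against 0 g/L no member passed, beside 0.0229% of all genes tested, which is a single gene. At an unadjusted p under 0.05 there were 0 members and 3.62% of all genes. Of the 10 members 9 had a positive log2 difference, with a median of 0.05 beside 0.01 over all genes, and STV1 had the negative one (-0.08, interval -0.30 to 0.14). VMA5 had the largest, 0.14 (interval -0.07 to 0.35, adjusted p = 0.953), and was the member whose values at 20 g/L all lay above those at 0 g/L, as did 1.65% of all genes. Over all genes tested, 2337 of 4359 differences were positive. The strains were not alike: 8 members were higher and 2 lower in KF7 and in NBRC1958, but 4 higher and 6 lower in NBRC2018. Of all genes tested, 53.9% were higher in KF7, 48.5% in NBRC1958 and 51.0% in NBRC2018. With 1 array left out at a time, the differences of VMA2, VMA6, VMA7, VMA10 and VMA13 changed sign in some cases.

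At 60 g/L against 20 g/L no member passed, against 15.9% of all genes, and 4 had an unadjusted p under 0.05 (VMA2, VMA4, VMA7 and VMA8), against 36.2% of all genes. The median log2 difference was -0.13 beside -0.06 over all genes, with 8 members negative, beside 2594 of 4359 genes tested. VMA2 differed by -0.35 (interval -0.61 to -0.09, adjusted p = 0.067), VMA7 by -0.26 (interval -0.48 to -0.04, adjusted p = 0.090), VMA8 by -0.24 (interval -0.45 to -0.02, adjusted p = 0.113) and VMA4 by -0.21 (interval -0.41 to -0.02, adjusted p = 0.114). With 1 array left out at a time, VMA2 passed in 1 of 9 cases, without KF7 at 60 g/L (-0.46, adjusted p = 0.040), and otherwise did not (as weak as -0.24, without NBRC1958 at 60 g/L, and adjusted p up to 0.231, without NBRC1958 at 20 g/L). VMA10 and VPH1 were positive, at 0.19 and 0.03. The arrays at 60 g/L were all below those at 20 g/L for VMA7 and VMA8, as for 15.3% of all genes, and all above for VMA10, as for 6.88%. This comparison shares its arrays at 60 g/L with the one against 0 g/L, so the 2 sets of differences are not separate evidence.

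Within single strains, each with 1 array per dose and hence no replicate check, the signs of the differences were mixed. Between 60 and 0 g/L, 5 members were higher, 4 lower and VMA8 equal in KF7, with a median log2 difference of 0.06 beside -0.04 over all genes. In NBRC2018 3 were higher and 7 lower, with a median of -0.20 beside -0.05, and in NBRC1958 3 were higher and 7 lower, with a median of -0.14 beside -0.07. Of all genes tested, 55.1% were lower in KF7, 56.5% in NBRC2018 and 57.0% in NBRC1958. VMA6 differed by 0.27 in KF7, -0.37 in NBRC2018 and -0.09 in NBRC1958. VMA13 differed by 0.21 in KF7, -0.23 in NBRC2018 and 0.03 in NBRC1958. VMA2 differed by -0.03 in KF7, -0.36 in NBRC2018 and -0.57 in NBRC1958, and VMA10 by 0.15, 0.00 and 0.52 in the same strains.

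The difference between strains in the response was tested with a straight line on dose in each strain, which leaves 3 residual degrees of freedom. No member and no other gene had slopes that differed between strains at an adjusted p under 0.05 (0.0% of all genes). At an unadjusted p under 0.05 there were 1 of 10 members (VMA6) and 9.66% of all genes. Over 60 g/L the slope of VMA6 was higher in KF7 than in NBRC2018 by 0.66 on the log2 scale (interval 0.15 to 1.16, adjusted p = 0.697). That of VMA13 was higher by 0.46 (interval 0.00 to 0.92, adjusted p = 0.753), and that of VMA2 was higher in KF7 than in NBRC1958 by 0.53 (interval -0.04 to 1.10, adjusted p = 0.490).

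**Figure D3:**
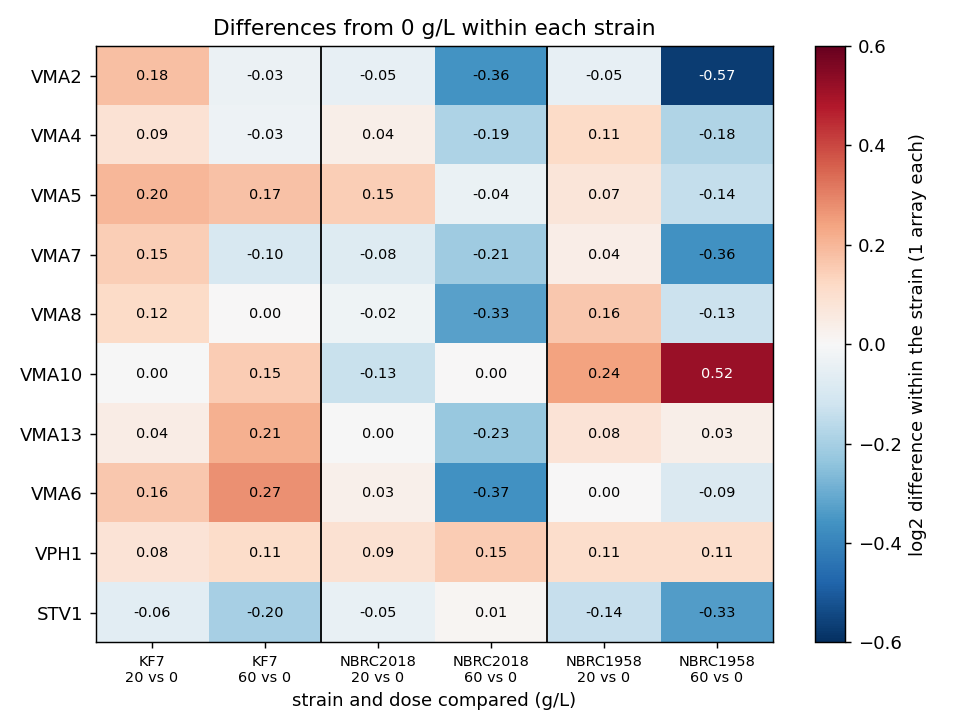
Log2 difference from the 0 g/L array of the same strain (colour, red higher and blue lower, value printed in each cell) for each of the 10 subunits (rows) at 20 and 60 g/L in KF7, NBRC2018 and NBRC1958 (columns, 1 array each, no error). The most extreme cells are VMA2 at -0.57 and VMA10 at 0.52, both at 60 g/L in NBRC1958, and VMA6 is 0.27 in KF7 and -0.37 in NBRC2018.

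Between strains, over the 3 doses, no member passed either. For KF7 against NBRC1958, 0 of 10 members passed against 19.1% of all genes, and 1 of 10 had an unadjusted p under 0.05 (VMA6) against 36.5%. VMA6 was higher in KF7 at every dose, by a mean log2 difference of 0.39 (interval 0.10 to 0.68, adjusted p = 0.065), and its KF7 and NBRC1958 values did not overlap (13.8% of all genes were higher in this way). Without the NBRC2018 array at 60 g/L, which enters through the shared estimate of spread and the dose terms, VMA6 passed (0.39, adjusted p = 0.040). In the other 8 of 9 cases of 1 array left out it did not pass, with a difference of 0.25 without KF7 at 60 g/L and an adjusted p of up to 0.199 without NBRC1958 at 20 g/L. VPH1 was lower in KF7 without overlap, as were 12.6% of all genes, and the members other than VMA6 differed by -0.16 to 0.19.

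For KF7 against NBRC2018, 0 of 10 members passed against 16.4% of all genes, and 2 had an unadjusted p under 0.05 (VPH1 and STV1) against 33.2%. VPH1 was lower in KF7 than in either other strain at every dose, by -0.20 against NBRC2018 (interval -0.38 to -0.01, adjusted p = 0.130) and by -0.16 against NBRC1958 (interval -0.34 to 0.03, adjusted p = 0.194). STV1 was lower in KF7 than in NBRC2018 by -0.22 (interval -0.44 to 0.00, adjusted p = 0.149), again at every dose. Over all genes 21.0% lay lower in KF7 than in NBRC2018 without overlap, as VPH1 and STV1 did. The 7 V1 members all had positive differences between KF7 and NBRC2018, with a median of 0.13 beside -0.05 over all genes. Over all genes tested, 1822 of 4359 differences were positive. No V1 member had an unadjusted p under 0.05. With 1 array left out at a time, VMA7 ran from -0.06 to 0.06 and VMA10 from -0.07 to 0.10. VMA4 was the V1 member whose KF7 values, 3219 to 3504, all lay above its NBRC2018 values, 2657 to 3105, as did those of 11.4% of all genes.

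For NBRC2018 against NBRC1958, 0 of 10 members passed against 27.9% of all genes, and 1 had an unadjusted p under 0.05 (STV1) against 42.7%. STV1 was higher in NBRC2018 at every dose, with a log2 difference of 0.25 (interval 0.03 to 0.47, adjusted p = 0.084), and VMA2 had the most negative difference, -0.23 (interval -0.49 to 0.03, adjusted p = 0.160). The values of STV1 in NBRC2018 were all above those in NBRC1958, as for 21.4% of all genes, and those of VMA13 all below, as for 13.1%. An array made for one yeast genome can read the same RNA differently where a strain's sequence differs under a probe, so sequence and RNA level cannot be told apart between strains.

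**Figure D4:**
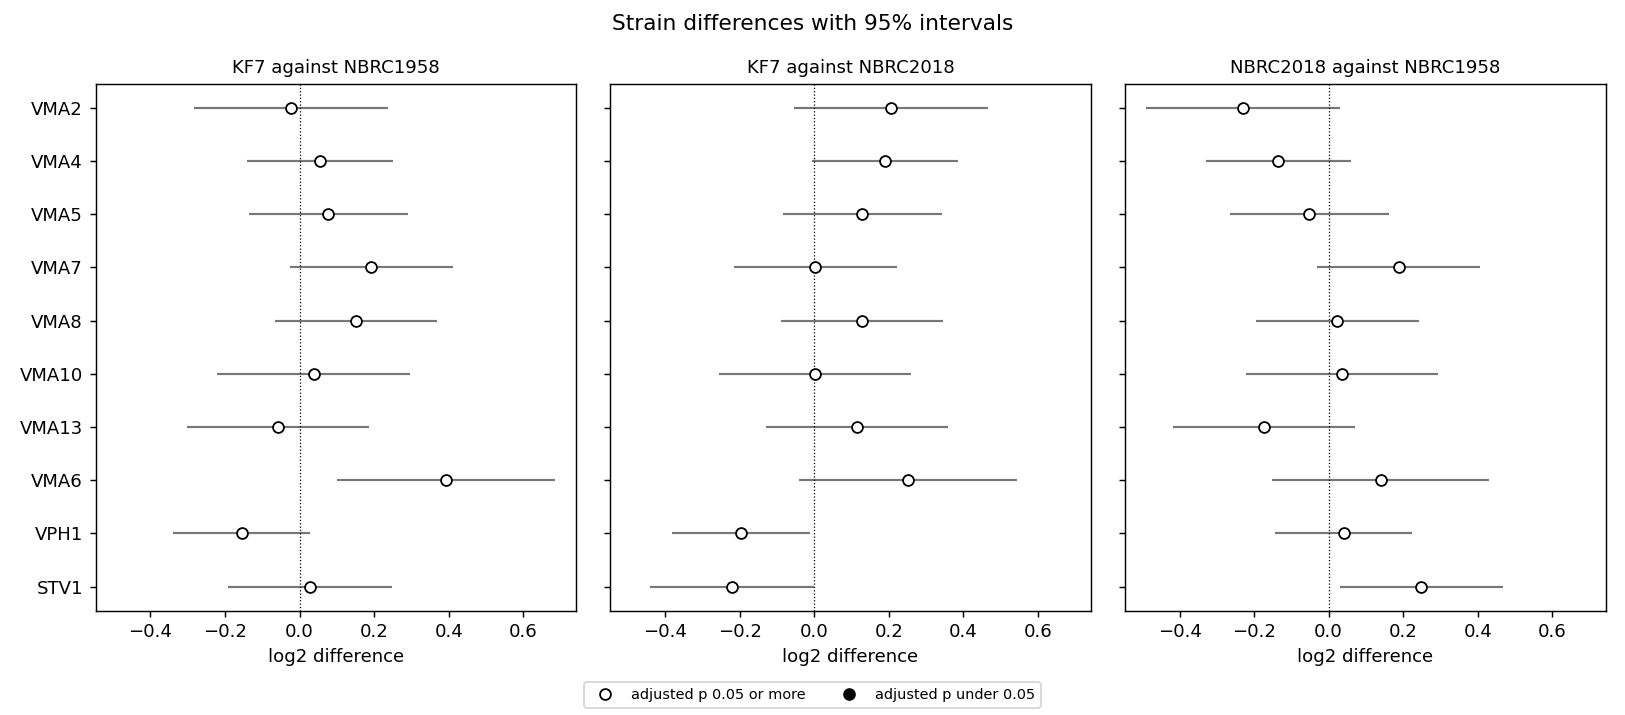
Log2 differences between strains over the 3 doses (x axis) for the 10 subunits (y axis), with points for the limma estimate and bars for its 95% interval. All points are open, for an adjusted p of 0.05 or more. VMA6 in KF7 against NBRC1958 lies farthest from 0, at 0.39.

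The members varied less than the median gene over the whole design, VMA2 and VMA6 only slightly so. For these 2, 43.1% and 40.6% of the genes tested had a lower SD. Genes of like signal were not compared. The SD of log2 signal over the 9 arrays was 0.11 for VPH1 and VMA5 and 0.22 for VMA2 and VMA6, and all 10 were below the median of 0.24 over the genes tested. The highest array was 1.22 to 1.58 times the lowest, beside a median of 1.70 times over all genes. Of the members' pooled sum of squares, 37.4% lay between doses, 38.7% between strains and 23.9% in the remainder, beside 34.2%, 51.8% and 14.0% over all genes tested. For VMA2 56.9% lay between doses, for VMA6 62.7% lay between strains, and for VPH1 71.7% lay between strains with only 1.28% in the remainder. VMA13 had 54.4% in the remainder, the largest share among the members.

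**Figure D5:**
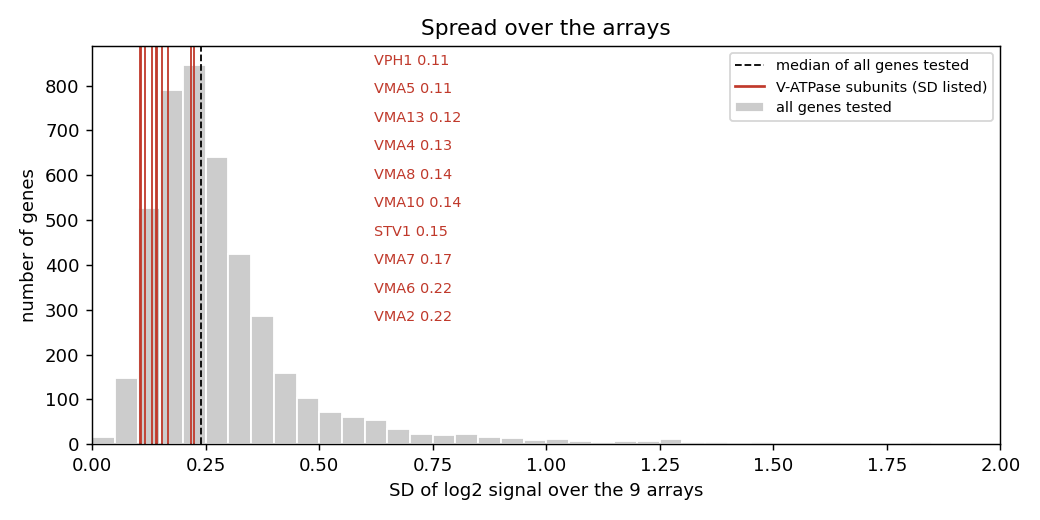
Number of genes (y axis) by SD of log2 signal over the 9 arrays (x axis) for the 4359 genes tested, with a line for each of the 10 subunits. All 10 lines, from 0.11 to 0.22, lie below the median of 0.24, and 3 genes with an SD over 2 fall outside the plot.

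The members differed in profile. Across the 9 arrays the mean centred log2 signal of the 10 was -0.01, 0.09 and 0.05 at 0, 20 and 60 g/L in KF7, 0.04, 0.03 and -0.12 in NBRC2018, and -0.01, 0.05 and -0.12 in NBRC1958. Pearson's r with the mean of the other 9 members was 0.95 for VMA8, 0.78 for VMA5, 0.76 for VMA4 and 0.66 for VMA7, and it was -0.15 for STV1, -0.54 for VMA10 and -0.58 for VPH1. These values describe 9 arrays that share 3 strains and 3 doses and carry no test. By the same measure the genes outside the members most like their mean were DAM1 (0.93), SET5, THI73, AMN1 and YCK3 (0.92 each for the last 4), and those most opposite were CIR2 (-0.96), YOR034C-A (-0.96), LEU1 (-0.95), MRP2 (-0.94) and TRX2 (-0.91). These genes are the extremes picked from all others tested. The measure compares shape and not size, as the SD of log2 signal was 1.31 for THI73.

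A list of 5 other subunits of the pump was read on the same arrays. VMA16, the c″ proteolipid of the V0 ring, rose at 60 g/L and was the 1 of 5 that passed, beside 22.8% of all genes tested. VMA16 read 2722, 2871 and 3460 at 0, 20 and 60 g/L in KF7, 2815, 2772 and 3140 in NBRC2018, and 2493, 2683 and 3433 in NBRC1958, a mean of 3344 ± 177 at 60 g/L and 2676 ± 166 at 0 g/L (SD, n = 3 strains each). Its log2 difference was 0.32 (interval 0.11 to 0.53, adjusted p = 0.040), and the call was lost when any 1 of the 9 arrays was left out (adjusted p = 0.051 to 0.173). VMA1 (the catalytic subunit A), VMA3 and VMA11 (the other proteolipids) and VMA9 (subunit e) did not pass, with differences of -0.02, -0.19, -0.14 and 0.11. All values of VMA3 and VMA11 at 60 g/L lay below those at 0 g/L, as for 15.8% of all genes, and all values of VMA16 lay above, as for 7.36%.

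Of 39 genes tested in 6 lists of the pump's surroundings, these 5 subunits included, 6 passed between 60 and 0 g/L, 3 higher and 3 lower. Over all genes tested, 22.8% passed (8.67% higher and 14.2% lower). The counts, over the 6 lists and in single lists, are small and are given as a description only. Among 11 vacuolar proton-coupled transporters, which use the gradient that the pump makes, 2 rose. COT1, a zinc and cobalt transporter, averaged 502 ± 191 at 60 g/L and 286 ± 119 at 0 g/L (SD, n = 3 strains each; log2 difference 0.78, adjusted p = 0.024), and AVT4, an amino acid exporter of the vacuole, averaged 250.2 ± 60.5 at 60 g/L and 168 ± 11.4 at 0 g/L (0.51, adjusted p = 0.027). OXR1, which promotes the parting of V1 from V0, fell, as the 1 of 5 genes of reversible assembly that passed, with 477 ± 99.8 at 60 g/L and 712 ± 147 at 0 g/L (-0.56, adjusted p = 0.032). VTC2, of the complex that makes vacuolar polyphosphate, was the 1 of 4 that passed (-0.36, adjusted p = 0.045), and APE1, a vacuolar aminopeptidase, the 1 of 9 hydrolases (-0.85, adjusted p = 0.033), and both fell. None of the 5 assembly factors of the endoplasmic reticulum passed, of which VPH2 (-0.18, adjusted p = 0.477) and PKR1 (0.06, adjusted p = 0.693) had the smallest p.

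The 5 calls outside the pump were each lost on leaving out certain single arrays. The COT1 call was lost on leaving out NBRC1958 at 0 g/L, NBRC1958 at 60 g/L or KF7 at 60 g/L (adjusted p = 0.057 to 0.124), and that of AVT4 on leaving out the same strains at 0 or at 60 g/L (0.054 to 0.138). The OXR1 call was lost without NBRC1958 at 0 or 60 g/L, NBRC2018 at 60 g/L or KF7 at 0 g/L (0.073 to 0.153). The APE1 call was lost without NBRC1958 at any dose, NBRC2018 at 0 or 60 g/L or KF7 at 0 g/L (0.052 to 0.159), and that of VTC2 without any array other than NBRC2018 at 60 g/L (0.062 to 0.153). At 20 against 0 g/L 0 of 39 passed, beside 0.0229% of all genes. At 60 against 20 g/L 2 of 39 passed, COT1 (0.69) and AVT4 (0.47), beside 15.9% of all genes, and each call was lost in 8 of the 9 cases of 1 array left out. Between strains the numbers that passed were 2 of 39 for KF7 against NBRC1958 (COT1 0.68 and VTC2 0.61), beside 19.1% of all genes, 2 for KF7 against NBRC2018 (COT1 0.75 and ZRC1 -0.57), beside 16.4%, and 6 for NBRC2018 against NBRC1958, beside 27.9%. These 6 were VBA1, VTC2 and PKR1, higher in NBRC2018, and PRC1, APE3 and AVT3, lower. PRC1, the vacuolar carboxypeptidase Y, had the most negative difference (-0.51). The call of PKR1, an assembly factor of the endoplasmic reticulum, was lost with any 1 of the 9 arrays left out. VTC2 in KF7 against NBRC1958 passed with each of the 9 arrays left out in turn, but not when dose was left out of the fit (adjusted p = 0.064). The other strain calls were each lost without at least 4 of the 9 arrays.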

How the data were processed

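The authors hybridised biotin-labelled cRNA to Affymetrix yeast arrays and deposited 1 linear intensity for each probe set and array. The sources used here do not give the summary or normalisation method. That the arrays had been scaled is inferred from their near-equal medians. Of 10928 probe sets, 5498 carried 1 S. cerevisiae gene in the platform annotation, which gave 5449 genes (highest-mean probe set each, symbols updated through RefSeq). The deposited intensities were taken to log2 after adding 16, the lowest 20% of genes by mean log2 (signal under 118) were left out, and limma 3.58.1 in R 4.3.3 was fitted with additive strain and dose (4 residual degrees of freedom) and with a dose slope per strain. Adjustment was by Benjamini-Hochberg over 4359 genes. The fit was also run on data simulated from the same additive model, which cannot show whether that model suits these arrays. Strain labels pair the arrays: deviations of the same strain correlated at 0.59 to 0.87, so strain is the block for dose. The number of arrays limits the precision. The p-values measure only the spread left between these arrays after strain and dose, drawn toward the value shared by all genes. That spread may be technical. The members and lists were chosen with earlier results of these data known. The rule named all members, and from each list up to 4 genes past the test with the largest difference or otherwise the 2 with the smallest p; for lists this was applied in full at 60 against 0 g/L only. VMA12 is VPH2 and LAP4 is APE1 in the reference; VTC5 is not analysed here, and VBA2 and VBA3 were under the filter. Promoter sequences were not analysed here. Alternatives were other offsets, filters, normalisations, probe set rules and variance settings, arrays left out, no strain block, and only the arrays compared.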

Additional observations from a re-analysis of the deposited data

How the results depend on the processing

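Every result was recomputed under 20 alternatives where they applied, 9 of them leaving out 1 array each. Of the recomputed log2 differences of the members, 1098 kept their sign and stayed short of the threshold, 38 changed sign without passing, and 4 passed. The count of members that passed was 0 in the 6 dose and strain comparisons. It was also 0 in all 6 without the replicate block, and other alternatives gave 1 member in 3 comparisons. It was 1 (VMA2, adjusted p = 0.040) at 60 against 0 g/L without the KF7 array at 60 g/L, 1 (VMA2) at 60 against 20 g/L without that array (adjusted p = 0.040) or with an intensity trend in the variance (adjusted p = 0.0495), and 1 (VMA6, adjusted p = 0.040) for KF7 against NBRC1958 without the NBRC2018 array at 60 g/L. Over the left-out arrays these counts ran from 0 to 1. The 6 genes other than members that passed at 60 against 0 g/L did not pass without the replicate block (adjusted p = 0.144 to 0.413) or with only the 6 arrays compared (adjusted p = 0.053 to 0.124), and VTC2 did not pass after quantile normalisation or median centring either. Between strains, only the PRC1 call held without the replicate block. Over all alternatives, 201 recomputed calls of genes other than members held and 139 were lost. The change of VPH1 relative to STV1 was 0.302 with an offset of 1, 0.276 with an offset of 64 and 0.281 after quantile normalisation. Depth does not apply to arrays, and all members read far above background. With 3 arrays a group, the standard errors of the members' log2 differences were 0.08 to 0.13.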
